A study of Homo sapiens with 4 samples.

Results

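NGFR, DCT, SORT1, NTRK2, MITF and TYRP1 are 6 genes of neurotrophin signalling and of the pigment cell lineage, 6 of the 58735 genes in a table of read counts from the human non-small-cell lung carcinoma line H1299. NGFR and DCT were selected on their read counts, because they had reads in methylparaben-treated cells and 0 or 1 read in ethanol control cells, and SORT1, NTRK2, MITF and TYRP1 were set beside them as partners or relatives. The values of NGFR and DCT between the groups are therefore a description and carry no test. There were 2 libraries from H1299 cells treated for 48 h with methylparaben at 0.5 mM, a preservative of cosmetics and foods, and 2 from control cells given ethanol, whose exposure time is not stated separately. All 4 libraries came from the same line with no other stated treatment. Whether replicates were grown apart is not recorded, so every p-value rests on the spread between these few libraries, which may be technical. Total counts were 3760982 and 2068486 in methylparaben libraries 1 and 2 and 2368658 and 2182058 in ethanol libraries 1 and 2, so that 0 reads in a library allow a level of up to 0.807, 1.55, 1.26 and 1.28 CPM (counts scaled to a common library size) in that order. This limit is taken as 3 counts, and it and all intervals below cover counting error only.

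Neurotrophins such as nerve growth factor signal through the Trk receptor tyrosine kinases and through NGFR, a member of the tumour necrosis factor receptor superfamily that lacks kinase activity and can pair with the sorting receptor sortilin (SORT1) to bind pro-neurotrophins. NGFR is widely used as a marker of neural crest cells. DCT, dopachrome tautomerase, works with tyrosinase (TYR) and TYRP1 on the route to eumelanin inside melanosomes of melanocytes, which descend from the neural crest, and MITF is the transcription factor that drives these genes in melanocytes.

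The counting program is not stated, but all transcripts without a base of their own, covered by no other annotated transcript (a single-transcript base), had 0 reads. From this it was inferred that reads were assigned solely on such bases, so the 6 genes could not be read equally well. NGFR had 1645 single-transcript bases, DCT 4758, NTRK2 3484, TYRP1 2146, MITF 2004 and SORT1 1894. NGFR and DCT passed the filter on low counts, both through the methylparaben libraries alone, and the other 4 did not. Of those 4, MITF and NTRK2 had 0 counts in every library, and SORT1 and TYRP1 had 2 and 6 in all. Of 8 markers chosen to check the cell line, NKX2-1, SFTPC, EPCAM and CDH1 had 0 counts in every library, while the epithelial keratin gene KRT8 had 31 and 22 counts in methylparaben libraries and 24 and 14 in ethanol libraries.

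**Figure D1:**
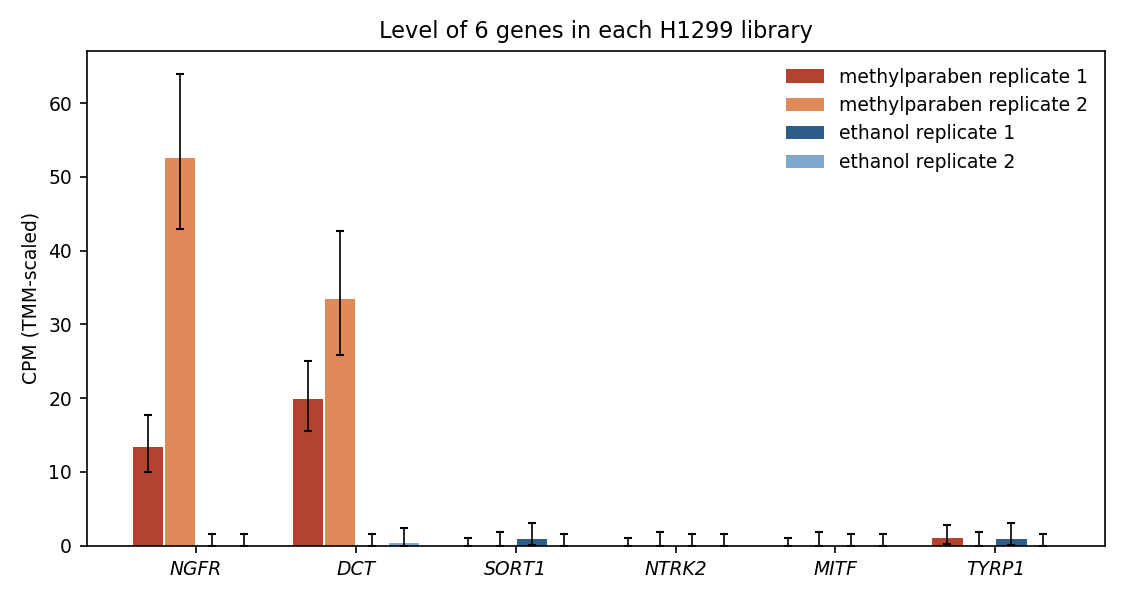
Level of each of the 6 genes in TMM-scaled CPM, with a bar for each library (methylparaben 1 and 2, then ethanol 1 and 2) and exact Poisson 95% intervals for counting error. NGFR and DCT stood above 10 CPM in both methylparaben libraries, and the upper bounds of all ethanol intervals lay at 3.03 CPM or lower.

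NGFR (ENSG00000064300.8, chromosome 17, 49495293 to 49515017, plus strand, GRCh38) had 50 and 102 counts in methylparaben libraries 1 and 2, against 0 and 0 in the ethanol libraries. With TMM scaling, which corrects library sizes for composition, these were 13.4 CPM (exact Poisson 95% interval 9.98 to 17.7) and 52.6 CPM (42.9 to 63.9), and 0 CPM in both ethanol libraries (upper bounds 1.55 and 1.58). These bounds of two-sided intervals lie above the limit of 3 counts, which is the one used for folds. The methylparaben libraries differed widely from each other. Summed over libraries, NGFR was at least 42.3-fold higher with methylparaben, taking 3 counts over the ethanol group as the limit. This bound became 82.8-fold without methylparaben replicate 1, 21.2-fold without methylparaben replicate 2, 21.0-fold without ethanol replicate 1 and 21.3-fold without ethanol replicate 2. In bulk RNA of this kind, a change in the number of cells with NGFR transcripts and a change in the amount per cell cannot be told apart.

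NGFR in methylparaben library 2 was 3.91-fold its level in methylparaben library 1 (exact binomial 95% interval 2.76 to 5.60). Among 5789 tested genes with at least 50 counts in the methylparaben libraries, 98.8% had a smaller gap between these 2 libraries. DCT also lay higher in library 2, by 1.68-fold (1.19 to 2.38), a gap larger than that of 86.0% of those genes. The cause of these gaps was not tested.

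Every NGFR read lay on NGFR-201, the only NGFR transcript with single-transcript bases. These bases formed 1 run, from 49513373 to 49515017 in exon 6 of 6, and all 1645 belong to the 3' untranslated region (UTR). Under the inferred counting, no coding base of NGFR could receive a read. In the authors' deposited FPKM values, which divide by the full transcript length of 3417 bases, NGFR-201 stood at 3.85 and 14.6 in methylparaben libraries 1 and 2 and at 0 in both ethanol libraries. Per kilobase of single-transcript sequence, the level was 8.18 and 32.0 CPM with methylparaben. Its mean of 20.1 CPM per kilobase exceeded that of 69.9% of 7529 tested genes with at least 500 such bases. By this mean, which methylparaben library 2 mostly set, NGFR reached a middle to upper level among genes that passed the low-count filter.

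DCT (ENSG00000080166.15, chromosome 13, 94436808 to 94479682, minus strand) had 74 and 65 counts in methylparaben libraries 1 and 2, against 0 and 1 in ethanol libraries 1 and 2. These were 19.9 CPM (exact Poisson 95% interval 15.6 to 25.0) and 33.5 CPM (25.9 to 42.7) with methylparaben, and 0 and 0.427 CPM (upper bounds 1.55 and 2.38) with ethanol. DCT was not strictly absent from the controls, having a single read in ethanol library 2. The ratio of summed counts, 139 over 1, was 116 after scaling, with an exact binomial 95% interval from 20.5 to 4617. It was 57.5 without ethanol replicate 1, and without ethanol replicate 2, where no control read remained, it became a bound of at least 19.5-fold. Per kilobase of single-transcript sequence, DCT stood at 4.18 and 7.04 CPM with methylparaben, and its mean of 5.61 exceeded that of 38.5% of the same 7529 genes.

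DCT reads fell on 3 of its 5 transcripts. DCT-201, a protein-coding transcript, had 58 and 40 reads with methylparaben and 0 and 1 with ethanol. All lay on 2679 bases from 94436808 to 94439486 in exon 8 of 8, which belong to the 3' UTR. The other protein-coding form, DCT-202, had 0 reads on only 69 single-transcript bases, so its level was scarcely measured. DCT-203, annotated as a retained intron, had 16 and 24 reads with methylparaben and 0 in both ethanol libraries, on 1906 bases that lie in introns 2 and 4 of DCT-201. DCT-204, annotated for nonsense-mediated decay, had 1 read in methylparaben library 2. Both the end of the gene and its introns were thus read in the treated libraries.

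Retained-intron reads made up 21.6% of DCT reads in methylparaben library 1 (exact binomial 95% interval 12.9 to 32.7) and 36.9% in library 2 (25.3 to 49.8). Per base, their density was 0.588 times that on the protein-coding transcripts of DCT over both methylparaben libraries. Among 836 protein-coding genes with at least 500 single-transcript bases of each kind and 50 coding reads there, the median of this ratio was 0.0881 and the upper quartile 0.358, and 18.9% of genes were at or above DCT. DCT therefore had a larger intronic share than most genes, although not an unusual one. NGFR has no retained-intron transcript in the annotation.

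**Figure D2:**
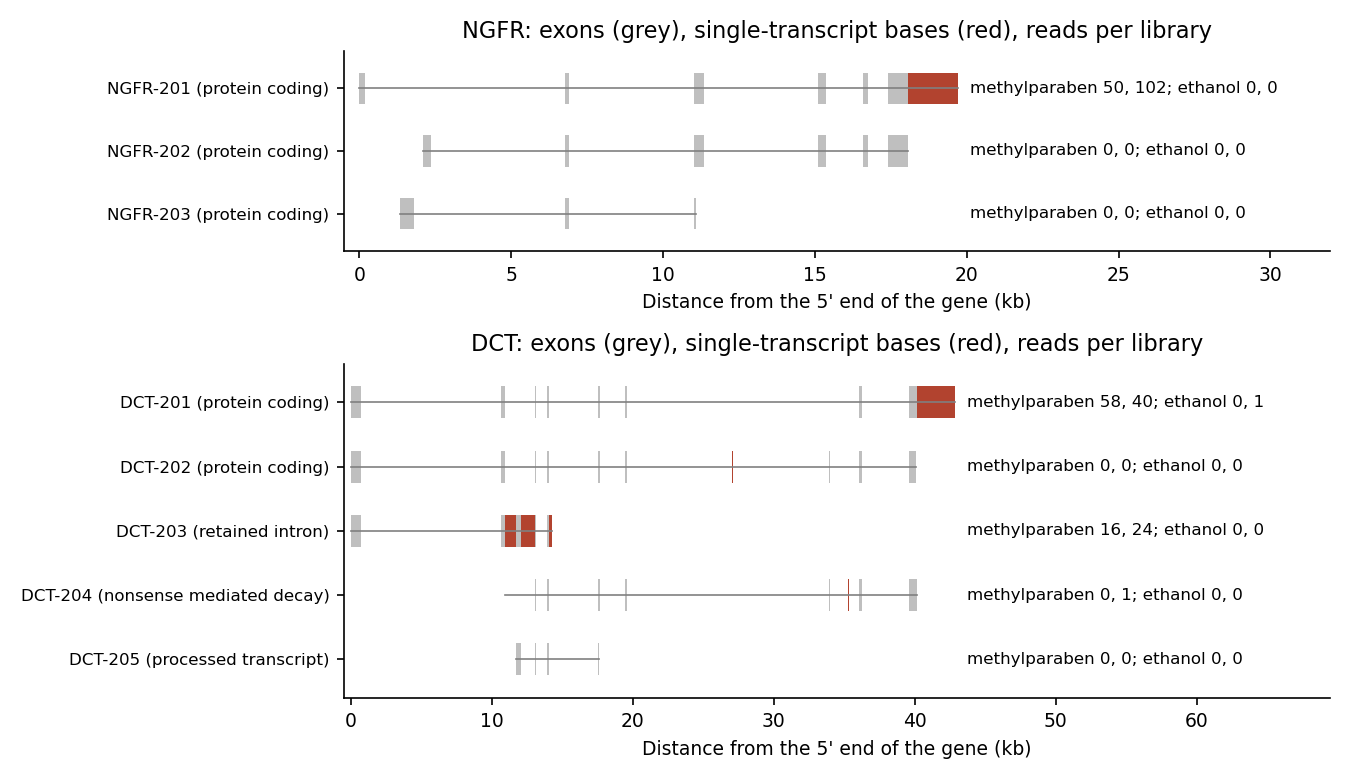
Annotated transcripts of NGFR and DCT against distance from the 5' end of the gene in kb, with exons in grey, single-transcript bases in red and the reads of methylparaben libraries 1 and 2 and ethanol libraries 1 and 2 at the right. All 152 NGFR reads and 98 of the 139 methylparaben DCT reads lay in the last exon, and 40 DCT reads lay on the retained-intron transcript DCT-203.

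DCT, TYRP1 and TYR are linked in melanocytes by a promoter element called the M-box, and only DCT of these 3 genes had more than 4 reads in any library. Their promoters are shown to set that shared element beside the unlike read counts. The 250 bases before each start are from RefSeq on GRCh38.p14, written 5' to 3' along the gene, with the M-box core TCATGTG, or its complement CACATGA, in capitals. DCT is at chr13:94479683-94479932 on the minus strand, TYRP1 at chr9:12693135-12693384 and TYR at chr11:89177625-89177874 on the plus strand.
DCT: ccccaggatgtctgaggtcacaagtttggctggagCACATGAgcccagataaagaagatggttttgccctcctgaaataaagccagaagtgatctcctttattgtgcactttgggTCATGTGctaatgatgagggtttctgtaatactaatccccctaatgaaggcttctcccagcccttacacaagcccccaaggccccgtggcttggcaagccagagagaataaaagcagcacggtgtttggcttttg
TYRP1: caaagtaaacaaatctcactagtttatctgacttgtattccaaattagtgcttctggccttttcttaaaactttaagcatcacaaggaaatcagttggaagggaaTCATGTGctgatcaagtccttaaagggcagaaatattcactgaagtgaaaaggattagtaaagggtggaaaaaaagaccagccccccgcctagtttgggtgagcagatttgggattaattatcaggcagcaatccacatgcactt
TYR: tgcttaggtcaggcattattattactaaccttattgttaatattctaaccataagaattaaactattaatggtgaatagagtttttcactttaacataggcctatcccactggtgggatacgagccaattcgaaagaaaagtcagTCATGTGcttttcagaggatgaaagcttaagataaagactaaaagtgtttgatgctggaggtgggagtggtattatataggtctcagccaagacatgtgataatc

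The core began 135 bases before the start in DCT, 145 in TYRP1 and 105 in TYR, and DCT held another on the opposite strand that began 215 bases before. On either strand, 2.52% of 35116 promoter windows of this length held TCATGTG, and 9.42% held the shorter E-box CATGTG contained in it. Neither the amino acid response element core TGATGNAA, present in 3.14% of windows, nor the ER stress response element, present in 0.0740%, occurred in these 3 windows on either strand. Matches describe the letters only. Of the 6 genes, 5 had a promoter window and DCT had 2, of which the one next to the annotated 5' end of the gene, 94479682, was used. The transcripts DCT-201 and DCT-203, which were read here, start slightly downstream of it, at 94479669.

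TYRP1, the melanosomal relative of DCT, had 4 and 0 counts in methylparaben libraries 1 and 2 and 2 and 0 in ethanol libraries 1 and 2. The 4 methylparaben reads lay on a short noncoding processed transcript with 175 single-transcript bases, and the 2 ethanol reads on the longest coding transcript, which has 1256 single-transcript bases. The ratio of methylparaben over ethanol was 1.67, with an exact binomial 95% interval from 0.239 to 18.5, so a difference in either direction was not detectable at this depth. MITF, the melanocyte transcription factor, had 0 counts in all 4 libraries. Of its 18 transcripts, 11 had single-transcript bases, and among the full-length coding forms MITF-201, MITF-202, MITF-203 and MITF-204 had 5, 35, 1 and 39 of them. The long coding forms MITF-206 and MITF-218, of 4479 and 4767 bases, had 0 and could receive no read under the inferred counting. A count of 0 for MITF therefore says little about those forms. Over its 2004 bases, 0 counts allow up to 0.265 CPM per kilobase in the methylparaben group and 0.317 in the ethanol group.

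NTRK2, the receptor tyrosine kinase for brain-derived neurotrophic factor, had 0 counts in all 4 libraries. Of its 8 transcripts, 1 had 3480 single-transcript bases, all in its 3' UTR, 1 had 4 and the other 6 had 0, so the count speaks only for the form with that 3' UTR. Over these bases, 0 counts allow up to 0.152 CPM per kilobase in the methylparaben group and 0.182 in the ethanol group. Those limits lie far below the 8.18 and 32.0 CPM per kilobase of NGFR in the methylparaben libraries. SORT1, the NGFR co-receptor sortilin, had 0 and 0 counts in methylparaben libraries and 2 and 0 in ethanol libraries 1 and 2, both on a short coding transcript of 561 bases. Its 2 full-length coding transcripts had 93 and 2 single-transcript bases of 7028 and 6993, so its level was scarcely measured.

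Genes with no read in either ethanol library and at least 3 in each methylparaben library numbered 193, or 0.860% of the 22450 genes with any read, and 172 genes showed the reverse. Of the 193 genes, 144 had only 3 to 5 counts in the lower methylparaben library, and the median of their mean methylparaben level was 2.11 CPM. NGFR, at 33.0 ± 27.7 CPM (SD, n = 2), had the highest mean among them. DCT met the rule once at most 1 ethanol count was allowed, which 383 genes did (1.71%), and was then the third by mean level, at 26.7 ± 9.63 CPM (SD, n = 2), behind NGFR and 1 other gene. Since both genes were picked for this pattern, their places describe how they were chosen.

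The other leading protein-coding genes of this kind were read on other sorts of transcript. TMEM41B, an ER membrane lipid scramblase gene, had 60 and 19 counts with methylparaben, and GTF3C1, a subunit of the RNA polymerase III factor TFIIIC, had 35 and 21. TBX2, a T-box repressor gene expressed in melanoblasts, had 14 and 25 counts, and STOML2, a mitochondrial inner membrane protein gene, had 23 and 20. Retained-intron transcripts held 100% of the reads of TMEM41B and TBX2 and 96.4% of those of GTF3C1, and noncoding processed transcripts held 95.3% of those of STOML2. Of 95 protein-coding genes among the 193, 42 had more than 50% of their reads on protein-coding transcripts, 44.2% against 73.3% of the 5832 protein-coding genes tested. DCT, with 70.7% of its reads on a protein-coding transcript, was on the majority side of the tested genes. The 100% of NGFR was fixed by the annotation, since under the inferred counting only its protein-coding transcript NGFR-201 could receive a read. It is therefore not set beside these shares.

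**Figure D3:**
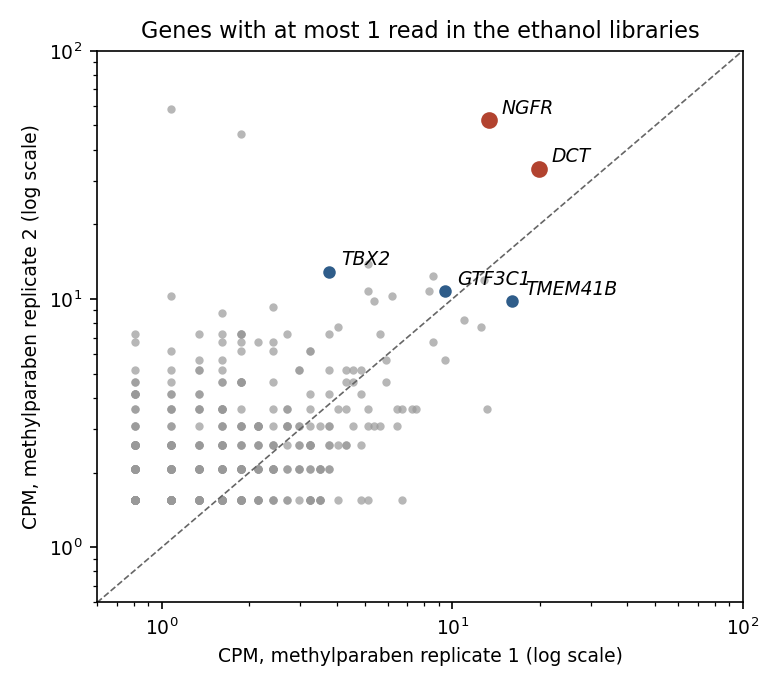
Level in methylparaben replicate 1 against replicate 2, both in TMM-scaled CPM on log axes, for the 383 genes with at most 1 read over both ethanol libraries and at least 3 in each methylparaben library. NGFR (13.4 and 52.6 CPM) and DCT (19.9 and 33.5 CPM), in red, lie above 10 CPM on both axes, and the dashed line marks equal levels.

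Measured by Euclidean distance of log2(CPM + 0.5) over the 4 libraries, the protein-coding gene most like NGFR was DCT, and the reverse also held, at a distance of 1.23. The next genes lay at 2.28 to 2.45 for NGFR, namely GTF3C1, PER3, TMEM41B and GPR107, and at 1.40 to 1.89 for DCT, namely PER3, GPR107, ADIPOR1 and SARAF. PER3, a circadian clock gene, had 62 and 34 counts in methylparaben libraries and 1 and 2 in ethanol libraries, and retained-intron transcripts held 98.0% of its reads. SARAF, a regulator of store-operated calcium entry, had 100 and 40 counts with methylparaben and 2 and 3 with ethanol, with 83.4% of its reads on protein-coding transcripts. With 4 libraries in 2 groups, this likeness mostly reflects the contrast that chose NGFR and DCT.

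Genes next to NGFR and DCT were mostly unread or did not pass the test. Of 13 annotated genes that overlap NGFR or lie within 100 kb of it, NXPH3, LINC02075 and the overlapping AC015656.1 had 0 counts in every library, with 3006, 1754 and 2654 single-transcript bases. AC006487.1, an antisense gene that overlaps NGFR, had 0 and 2 counts in methylparaben libraries 1 and 2 and 0 in both ethanol libraries. Strand was not stated for the counting, so antisense reads over NGFR could not be told from its own. By edgeR's quasi-likelihood test, PHB, prohibitin, was at a log2 fold change of 1.53 ± 0.64 (SE, adjusted p = 0.0886). With 19 and 12 counts in methylparaben libraries and 6 and 3 in ethanol libraries, PHB passed the filter only through the methylparaben libraries. The most read neighbour, the processed pseudogene EIF4EP2, was at 0.33 ± 0.18 (adjusted p = 0.184). SPOP, a ubiquitin ligase adaptor gene, was at -0.64 ± 0.54 (adjusted p = 0.376). Beside DCT, the glypican gene GPC6 was at -0.09 ± 0.43 (adjusted p = 0.895) and TGDS, a dehydratase gene upstream of DCT, at 0.50 ± 0.21 (adjusted p = 0.0790), which became 0.0109 without methylparaben replicate 2.

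Markers of other cell types were mostly at or near 0. Of 10 melanocyte markers, the 8 other than DCT and TYRP1 summed to 3 and 5 counts in methylparaben libraries 1 and 2 and 3 and 0 in ethanol libraries 1 and 2, and TYR, SOX10, TRPM1 and S100B were at 0 in all libraries. Each of these 8 genes had at least 500 single-transcript bases. As MITF shows, with 2004 such bases but few on its full-length forms, this does not ensure that the main transcript could be read. Counts of 0 here therefore do not show absence. Of 12 Schwann cell and neuron markers, 4 had reads, summing to 4.84 and 10.3 CPM with methylparaben and 7.98 and 4.70 CPM with ethanol, and the glial markers SOX10 and S100B were at 0. Fibroblast markers summed to 1.08 and 3.09 CPM with methylparaben and 2.52 and 9.39 CPM with ethanol, and 7 blood markers had 0 counts.

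Across all genes, edgeR's quasi-likelihood test called 2976 of 8055 at an adjusted p under 0.05, which is 36.9%, with 18.5% higher and 18.4% lower with methylparaben. Of 167 genes in 9 lists of neurotrophin, pigment cell and neural crest genes, the 6 genes above left aside, 99 had reads and 45 could be tested. Among these 45, 6 were higher and 13 lower, with a median log2 fold change of -0.15 against 0.03 over all genes tested. BLOC1S3 and ZNF274 of the 6, and PCSK6, TNFRSF11B and NES of the 13, needed the group where they are high to pass the filter. Their calls are no support. Called list genes numbered 11 without ethanol replicate 1, with 6 higher, and 11 without ethanol replicate 2, with 7 higher, against 19 in full, and calls over all genes numbered 1677 without ethanol replicate 1. Where a library is left out, the lone library of that group is assumed to vary like the other group.

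Of 6 further neurotrophin receptor and sortilin-family genes, 1 was tested and it fell. SORL1, the sorting receptor SORLA of the same family as sortilin, had 46 and 32 counts in methylparaben libraries 1 and 2, against 180 and 169 in ethanol libraries 1 and 2. SORL1 stood at 14.4 ± 2.92 CPM with methylparaben and 73.9 ± 2.41 CPM with ethanol (SD, n = 2 each). Its log2 fold change was -2.38 ± 0.28 (SE; adjusted p = 0.000322), with 97.4% of its reads on the 1 coding transcript, and the call held with any 1 library left out. SORCS1, another gene of the sortilin family, had 0 counts throughout, and of the 4 neurotrophin ligands only NTF4, neurotrophin 4, had reads, with 8 and 7 counts in methylparaben libraries and 2 and 6 in ethanol libraries.

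Of 10 tested NGFR signalling partners 2 rose and 2 fell, with a median log2 fold change of -0.02. TRAF6, the ubiquitin ligase that NGFR recruits, rose to 67.6 ± 2.96 CPM with methylparaben, against 33.7 ± 0.494 CPM with ethanol, at 1.01 ± 0.24 (SE; adjusted p = 0.00985, and 0.0627 without ethanol replicate 1). ZNF274, a zinc finger gene related to the NGFR-interacting factor of the mouse, was at 2.07 ± 0.53 (edgeR adjusted p = 0.0136), and retained-intron transcripts held 99.1% of its reads. Without methylparaben replicate 2 the log2 fold change of ZNF274 was 1.43 and the call was lost. With 44 and 52 counts in methylparaben libraries and 12 and 9 in ethanol libraries, ZNF274 needed the methylparaben libraries, where it is high, to pass the filter. Its count among those that rose is therefore no support. ADAM10, a membrane sheddase gene, was at -0.50 ± 0.17 (adjusted p = 0.0431), and PCSK6, a proprotein convertase gene, was at -2.09 ± 0.66 (adjusted p = 0.0325). The ADAM10 call was lost when methylparaben replicate 2, ethanol replicate 1 or ethanol replicate 2 was left out, with adjusted p of 0.196, 0.124 and 0.272. PCSK6, with 4 and 3 counts in methylparaben libraries and 12 and 14 in ethanol libraries, passed the filter only through the ethanol libraries, where it is high, so its count among those that fell is no support. Its call was lost with any 1 library left out, with adjusted p from 0.161 to 0.368. Without methylparaben replicate 1, 2 partners rose and 1 fell, without methylparaben replicate 2, 2 rose and 0 fell, without ethanol replicate 1, 1 rose and 0 fell, and without ethanol replicate 2, 3 rose and 0 fell.

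Of 6 tested Trk adaptors 1 rose and 1 fell, with a median of 0.01. CRKL, an adaptor linking receptors to Rap and Ras, was at 0.80 ± 0.19 (SE; adjusted p = 0.00998, and 0.0719 without ethanol replicate 2), with 271 ± 50.2 CPM with methylparaben and 155 ± 15.5 CPM with ethanol. GAB1, a docking protein gene, was at -0.99 ± 0.25 (adjusted p = 0.0114, and 0.0505 without ethanol replicate 1). Among 28 other genes of the TNF receptor superfamily, 16 had 0 counts, 5 were tested, 0 rose and 2 fell. Only 18 of the 28 had at least 500 single-transcript bases, and 36285 of all 58735 genes had 0 counts. The 16 at 0 are therefore not read as a result about this family. TNFRSF9, a costimulatory receptor gene, was at -1.84 ± 0.41 (adjusted p = 0.00700, and 0.0779 without ethanol replicate 1). TNFRSF11B, which encodes osteoprotegerin, had 0 and 2 counts in methylparaben libraries and 11 and 11 in ethanol libraries, a ratio of 0.0759 (exact binomial 95% interval 0.00865 to 0.309, adjusted p = 0.0228). It passed the filter only through the ethanol libraries, where it is high, so its count among those that fell is no support. Its call was lost without methylparaben replicate 1 (adjusted p = 0.266), and it was not tested when either ethanol library was left out. In this family 1 gene fell without ethanol replicate 2 and 0 without ethanol replicate 1.

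Of 17 other pigment enzyme and melanosome protein genes, 2 were tested and 1 rose. RAB32, a small GTPase gene that acts in delivery of pigment enzymes to melanosomes and is also expressed outside pigment cells, had 1309 and 784 counts in methylparaben libraries 1 and 2, against 456 and 413 in ethanol libraries 1 and 2. It stood at 378 ± 36.9 CPM with methylparaben and 184 ± 10.7 CPM with ethanol. The log2 fold change of RAB32 was 1.04 ± 0.17 (SE, edgeR adjusted p = 0.00160), and it ran from 0.97 to 1.13 with 1 library left out. GPNMB, a melanosomal glycoprotein gene, had 14 and 7 counts with methylparaben and 14 and 12 with ethanol (adjusted p = 0.451).

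Of 14 tested genes of the complexes that build melanosomes and related organelles 2 rose and 4 fell, with a median of -0.19. BLOC1S3, a BLOC-1 subunit gene and 1 of the 2 that rose, had 29 and 54 counts in methylparaben libraries and 8 and 3 in ethanol libraries. It passed the filter only through the methylparaben libraries, where it is high, so its count among those that rose is no support. HPS4, a subunit of the RAB32 exchange factor BLOC-3, had 527 and 240 counts with methylparaben and 66 and 69 with ethanol, at 2.22 ± 0.22 (SE; adjusted p = 0.000160), and retained-intron transcripts held 99.8% of its reads. The call held with any 1 library left out, but it describes intron-containing RNA. BLOC1S5, a BLOC-1 subunit gene, at -1.66 ± 0.40 (adjusted p = 0.0101), AP1G1, a clathrin adaptor subunit gene, at -0.73 ± 0.18 (adjusted p = 0.0109), and VPS33A, a tethering factor subunit gene, at -1.06 ± 0.27 (adjusted p = 0.0135) fell. Without ethanol replicate 2 these 3 were at adjusted p of 0.0755, 0.0979 and 0.0913. In this list 4 rose and 4 fell without methylparaben replicate 1, 1 rose and 3 fell without methylparaben replicate 2, 2 rose and 3 fell without ethanol replicate 1, and 2 rose and 0 fell without ethanol replicate 2.

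Of 33 neural crest markers other than NGFR, 19 had 0 counts, 6 were tested, 0 rose and 3 fell, with a median of -0.74. Since 36285 of all 58735 genes had 0 counts, the 19 at 0 are not read as a result about these markers. ITGA4, the alpha-4 integrin gene, had 231 and 77 counts in methylparaben libraries 1 and 2, against 476 and 400 in ethanol libraries 1 and 2, at -1.84 ± 0.24 (SE; adjusted p = 0.000547), a call that held with any 1 library left out. NES, which encodes the intermediate filament nestin, was at -1.78 ± 0.54 (edgeR adjusted p = 0.0269). Its call was lost without methylparaben replicate 1, ethanol replicate 1 or ethanol replicate 2, at log2 fold changes of -1.21, -1.80 and -1.74. With 9 and 11 counts in methylparaben libraries and 31 and 31 in ethanol libraries, NES needed the ethanol libraries, where it is high, to pass the filter. Its count among those that fell is therefore no support. TFAP2A, a transcription factor gene of neural crest induction, was at -1.15 ± 0.33 (adjusted p = 0.0228, and 0.0779 and 0.0954 without ethanol replicate 1 and without ethanol replicate 2), and retained-intron transcripts held 77.9% of its reads. It was also the only called gene of 2 tested among the 21 other melanocyte receptors and regulators. Without methylparaben replicate 1, 2 neural crest markers fell, and 1 fell without ethanol replicate 1 or ethanol replicate 2. Among melanocyte regulators 1 rose without methylparaben replicate 1, without ethanol replicate 1 or without ethanol replicate 2. FOXD3 and TWIST1, transcription factor genes of the neural crest, were at 0.67 ± 0.53 and 0.41 ± 0.33 (adjusted p = 0.351 each).

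**Figure D4:**
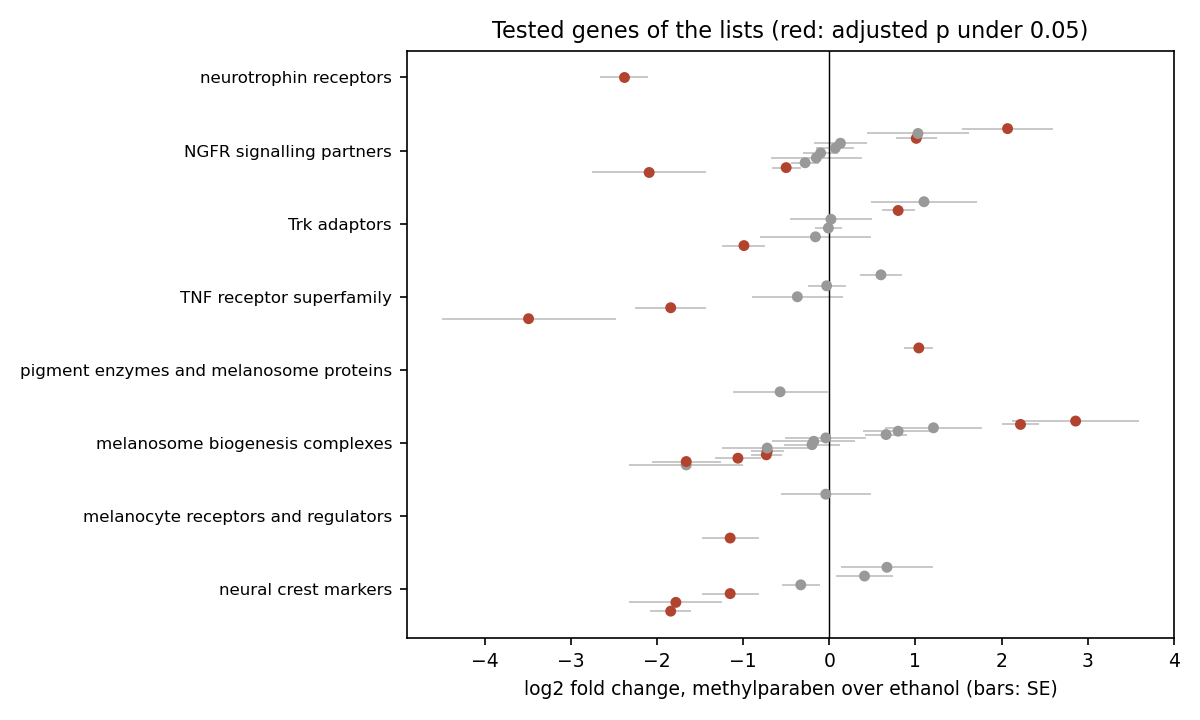
Log2 fold change of methylparaben over ethanol (x axis) with SE bars for the tested genes of 8 lists, 1 point a gene, red where the adjusted p of edgeR's quasi-likelihood test was under 0.05. A total of 6 distinct genes lie in red above 0 and 13 below, and the 6 genes shown above are left out.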

How the data were processed

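For 206601 transcripts, the deposited table holds raw read counts, and FPKM values with their log2 after adding 1, per the file headers. The authors' p-values in the deposited table were not used. Per the submitters' processing notes, the build is GRCh38 and DESeq2, limma and edgeR were used; the aligner and the counting program are not given in the sources here. All transcripts matched GENCODE release 29 coordinates. Bases belonging to a single transcript were derived from its exons without strand, and the 70749 transcripts lacking any of them had 0 reads.

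Counts were joined by transcript ID and summed per gene. Genes were filtered with filterByExpr (minimum count 10, minimum total 15), TMM-scaled and compared in R 4.3.3 with edgeR 4.0.16 (quasi-likelihood, two-sided). P-values of 8055 genes were adjusted by Benjamini and Hochberg's method and called under 0.05, after the fit was tested on simulated data. The SE is the log2 fold change over the square root of F. Intervals are exact Poisson (levels) or exact binomial (ratios). Genes named are the 6 members, up to 4 called genes per list by smallest p, the 5 most alike, the 5 highest newly detected protein-coding genes and neighbours within 100 kb; other named genes were chosen after their values were seen. The members and lists were chosen with earlier results of these data known. Libraries held 2068486 to 3760982 counts. The alternatives tried were other scalings, filters, DESeq2 1.42.0, limma 3.58.1 on FPKM, a replicate block, retained-intron transcripts left out and each library left out.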

Additional observations from a re-analysis of the deposited data

How the results depend on the processing

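Calls over all genes and called list genes, 2976 and 19, stayed within 1.5 times under RLE scaling, library size alone, DESeq2, either other filter, and without retained-intron transcripts. Library size alone moved the median log2 fold change of all genes to -0.08, against 0.03. Limma on log2(FPKM + 0.1) called 1899 genes and 8 list genes, and on log2(FPKM + 1) 11 list genes; the cause was not tested. Leaving out each library gave 1677 to 3095 genes and 11 to 19 list genes. The DCT ratio ran from 57.5 to 158 over the left-out libraries, save that without ethanol replicate 2 only a bound of at least 19.5 remained. The NGFR bound ran from 21.0 to 82.8. Newly detected genes numbered 12 with at least 10 counts in each methylparaben library, 383 with at most 1 ethanol count, a limit added after seeing the data, and 395 to 786 without 1 library, where fewer libraries must meet the rule. Among 17 named genes, 183 refits kept the call, 49 lost it and 0 changed sign. Same-numbered libraries deviated from their group means with a correlation of -0.15 across genes and share only a number. The replicate block gave 2488 genes and 17 list genes, and the crossed pairing, added after seeing the data, 3292 and 20. Depth limits what can be said of TYRP1, and the few single-transcript bases limit MITF and SORT1.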
